A study of Caenorhabditis elegans with 2 samples.

Results

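Chromatin immunoprecipitation with sequencing was used to map where NHR-12, tagged with eGFP, was found on the DNA of whole Caenorhabditis elegans larvae, and the deposited results are lists of regions. Described here are all 217 regions of the list made from both replicates together on the ce11 build, and above all the 158 of them (72.8%, 95% interval 66.4 to 78.6) that overlap no peak of the authors' optimal list by 1 bp. The optimal list holds 57 peaks past a filter on the irreproducible discovery rate (IDR), a measure of how well replicates rank the same regions. Of the 217 pooled regions, 59 overlap it: 32 on nuclear chromosomes and 27 on mitochondrial DNA. The 158 regions that do not are named outside regions below, and the 32 are named nuclear optimal regions.

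All material came from strain OP318, which carries the unc-119(ed3) mutation on chromosome III and the transgene wgIs318, an insertion that targets nhr-12 and adds eGFP. Larvae were at the L3 stage and of both sexes, and the labels name 2 biological replicates, which form 1 group and share strain, transgene, stage and tissue. The labels give nhr-12 as the antibody's target. The promoter that drives the transgene and whether the replicates were separate cultures were not stated in the sources used here. Whole larvae mix all tissues, so a site used in few cells and a site used weakly in many cannot be told apart. No group without the tag and no control immunoprecipitation was analysed here, so no test between conditions was possible.

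Nuclear hormone receptors are transcription factors with a zinc-finger domain that binds DNA and a domain that can bind small lipophilic molecules. Many of them recognise the core element AGGTCA or GGGTCA, alone or repeated, and raise or lower transcription of genes nearby. The family is greatly expanded in nematodes, and many members, NHR-12 among them, have no known ligand. In C. elegans, members of the family act in metabolism, moulting and development.

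The outside regions formed the weak end of the pooled list. Their signal value, the score that the authors' peak caller gave within the list, ran from 30.2 to 38.6 with a median of 32.2, and their q-values ran from 0.157 to 0.954 with a median of 0.680. The 57 optimal peaks are the 57 pooled regions of highest signal value, from 39.2 upward, with q-values up to 0.115. The limit between them is narrow: the strongest outside region had 38.6 and the weakest optimal peak 39.2. Signal value and optimal membership chose the outside regions, so these values describe them and test nothing. The other 2 pooled regions that overlap the optimal list are mitochondrial rows of low rank, with signal values of 37.2 and 30.2. No outside region (0 of 158) lay on mitochondrial DNA. All 158 were 396 bp wide.

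**Figure D1:**
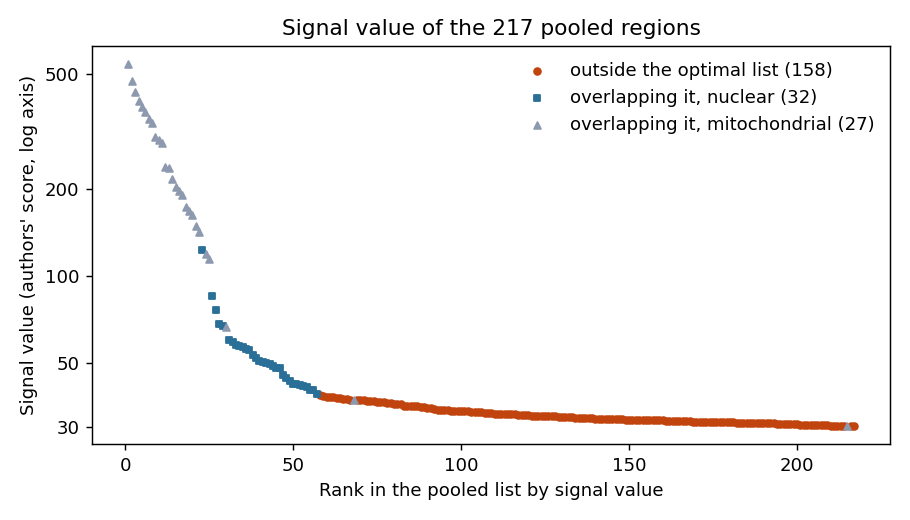
Signal value (the authors' score, log axis) of each pooled region against its rank in the pooled list, with outside regions in orange, nuclear regions that overlap the optimal list in blue and mitochondrial ones in grey. The outside regions lie on a flat tail between 38.6 and 30.2, just under the weakest optimal peak at 39.2.

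Sequences at 5 outside regions show what lies under summits that were strong in both replicates and close to a small RNA gene. Each runs 5′ to 3′ on the strand of the gene, from the gene to the summit with a margin, and capitals mark the annotated gene. The sequences come from the RefSeq copy of assembly WBcel235, whose sequence is that of ce11. They are the snoRNA gene ZK994.7 (chrV:8500569-8500655, plus strand), the snoRNA gene F55A11.10 (chrV:11782982-11783099, plus strand), the microRNA precursor mir-52 (chrIV:14033998-14034117, plus strand), and the tRNA genes T28B4.t1 (chrX:6593586-6593691, plus strand) and R11.t1 (chrX:16209728-16209862, minus strand).
ZK994.7: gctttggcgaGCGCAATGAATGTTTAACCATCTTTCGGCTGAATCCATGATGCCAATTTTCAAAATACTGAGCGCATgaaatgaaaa
F55A11.10: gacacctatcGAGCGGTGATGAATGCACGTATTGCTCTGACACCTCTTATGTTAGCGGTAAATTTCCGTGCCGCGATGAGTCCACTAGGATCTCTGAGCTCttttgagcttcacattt
mir-52: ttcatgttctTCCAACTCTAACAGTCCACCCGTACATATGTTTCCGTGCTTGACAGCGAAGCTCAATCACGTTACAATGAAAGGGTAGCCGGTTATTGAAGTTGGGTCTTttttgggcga
T28B4.t1: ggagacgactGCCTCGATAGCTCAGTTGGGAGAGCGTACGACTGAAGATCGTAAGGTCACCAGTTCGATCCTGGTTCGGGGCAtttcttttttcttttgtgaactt
R11.t1: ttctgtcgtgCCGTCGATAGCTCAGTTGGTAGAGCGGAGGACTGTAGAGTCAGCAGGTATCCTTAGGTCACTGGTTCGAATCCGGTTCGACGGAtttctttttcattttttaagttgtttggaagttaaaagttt

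Nearly every outside region had some support in both replicates, but few were strong in both. Each replicate has its own list of candidate regions, 13876 in replicate 1 and 23791 in replicate 2, which includes background. A candidate region overlapped 145 of the 158 outside regions in replicate 1 (91.8%, 86.3 to 95.5) and 151 in replicate 2 (95.6%, 91.1 to 98.2). Both lists overlapped 138 (87.3%, 81.1 to 92.1), the list of replicate 1 alone 7 and that of replicate 2 alone 13, and none of the 158 lacked both. All 32 nuclear optimal regions had both. Of all 396-bp windows of the nuclear genome, 10.6% would touch a region of replicate 1, 17.9% one of replicate 2 and 3.05% both. The pooled list was made from the reads of the same replicates, so overlap with their lists is not independent of it. Most summits lay close together: the median shift between an outside region and its strongest overlapping candidate was 14 bp in replicate 1 and 22 bp in replicate 2, with the largest at 322 and 378 bp. The pooled summit lay inside a candidate region for 141 of 158 outside regions in replicate 1 and for 148 in replicate 2, and for all 32 nuclear optimal regions in both.

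Among the 1000 strongest regions of each replicate the picture was split. Of the outside regions, 30 overlapped a region of that rank in both replicates (19.0%, 13.2 to 25.98), 58 in replicate 1 alone (36.7%), 56 in replicate 2 alone (35.4%) and 14 in neither (8.86%). Of the 32 nuclear optimal regions, 30 did so in both (93.8%, 79.2 to 99.2). The optimal peaks passed the authors' IDR filter and are also those of highest pooled signal value, so this contrast is not independent of their choice. Agreement was not complete: the lowest placed nuclear optimal region in replicate 2 had rank 11909 there. Only 0.0468% of nuclear windows of 396 bp would touch a region among the 1000 strongest in both lists. Strong here means a rank within a list, not a low q-value. A q-value under 0.05 was held by 47 of 13876 candidate regions in replicate 1 and 0 of 23791 in replicate 2. The strongest candidates that overlap outside regions had a median q-value of 0.541 in replicate 1 and 0.417 in replicate 2. The outside regions that were strong in both replicates had a median signal value of 35.0 in the pooled list, against 32.3 for those strong in replicate 1 alone, 31.8 for those strong in replicate 2 alone and 31.2 for those strong in neither. In the stronger part of the outside regions 24 of 79 were strong in both, and in the weaker part 6 of 79.

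Many outside regions rested on 1 replicate. A rank of at most 100 in either replicate was held by 37 of them, and only the region at mir-52 held it in both. Of the 19 that ranked within 100 in replicate 1, 4 were among the 1000 strongest of replicate 2, and of the 19 in replicate 2, 2 were among the 1000 strongest of replicate 1. In 26 outside regions, a rank of at most 100 in 1 replicate went with a rank past 5000 or no region at all in the other, 11 with replicate 1 strong and 15 with replicate 2 strong. Across the 138 outside regions with both ranks, Spearman's rho between the ranks was -0.46, against 0.31 over the 32 nuclear optimal regions. Both values describe regions that were picked by a pooled score over the same reads, and no test was made of them.

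**Figure D2:**
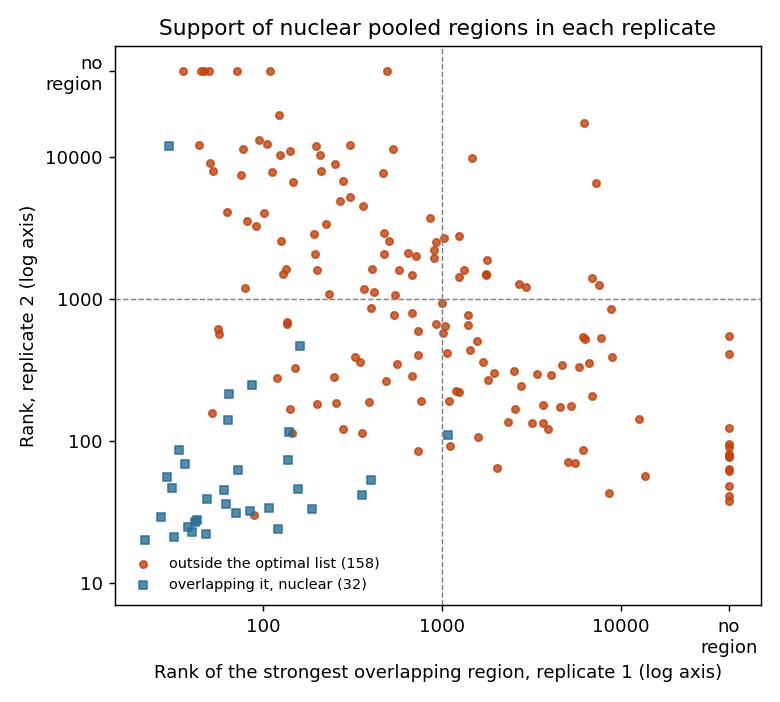
Rank of the strongest candidate region that overlaps each nuclear pooled region in replicate 1 (horizontal, log axis) and replicate 2 (vertical, log axis), with outside regions as orange circles, nuclear regions that overlap the optimal list as blue squares, and regions with no overlapping candidate at the far edge. Dashed lines mark rank 1000. The 30 outside regions strong in both replicates share the lower left field with 30 of the 32 nuclear optimal regions, while 58 and 56 outside regions are strong on 1 axis only.

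The 30 outside regions strong in both replicates include the strongest outside region of all. Its summit, at position 8500587 of chromosome V, lay inside the snoRNA gene ZK994.7, with a signal value of 38.6, rank 733 in replicate 1 and rank 85 in replicate 2. The region at mir-52, a microRNA precursor of the mir-51 family, had its summit at position 14034016 of chromosome IV, a signal value of 35.6 and ranks of 89 and 30. Pairs of ranks are given for replicate 1 and then replicate 2. By these ranks the mir-52 region was the best placed outside region in replicate 2 and the only outside region within 100 in both lists. The region at kel-3, a kelch-repeat gene, lay in the 3′ UTR of cdk-5, a cyclin-dependent kinase gene, on chromosome III (summit 13464701) and had ranks of 52 and 158. The region 647 bp upstream of pot-3, near the end of chromosome III, had ranks of 145 and 114. Bases masked in the reference sequence made up 79.3% of it, against a median of 26.8% over outside regions. The region at the snoRNA gene F55A11.10, in an intron of F55A11.6, had ranks of 142 and 167. The regions at kel-3, pot-3, F55A11.10 and mir-52 and the region at idh-1 described next were the 5 with ranks of at most 200 in both replicates. In 3 of the 5, the candidate region of 1 replicate overlapped the pooled region without holding its summit. Its own summit lay 248 bp away at mir-52 and 277 bp away at kel-3, both in replicate 2, and 263 bp away at pot-3 in replicate 1.

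Further outside regions strong in both replicates lay in or near protein-coding genes of various functions. The summit 210 bp upstream of sec-61.G, a subunit of the protein channel of the endoplasmic reticulum, had a signal value of 37.8 and ranks of 120 and 279. That near iff-2, which codes for a translation factor of the eIF5A family, lay 1874 bp from its start between genes, with a signal value of 38.2 and ranks of 56 and 608. A summit in a coding exon of mut-2, a nucleotidyltransferase gene needed for RNA interference, had a signal value of 38.3 and ranks of 57 and 562. The region at idh-1, which codes for an isocitrate dehydrogenase, had a signal value of 36.0 and ranks of 200 and 182, and its summit lay 351 bp from that gene's start in an intron of F59B8.1. The region in gst-22, a glutathione S-transferase gene, had a signal value of 37.1 and ranks of 136 and 666. The region in the 5′ UTR of fos-1, which codes for a basic leucine zipper transcription factor, had a signal value of 34.6 and ranks of 734 and 589.

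The rest of the 30 were spread over genes with little in common. They lay in coding exons of R12B2.8, mdt-26 (a Mediator subunit), srz-1 (a chemoreceptor-type gene) and oac-59, and in a coding exon of F13H8.5 near phb-2, a prohibitin gene. They lay in the 3′ UTR of oct-1, an organic cation transporter gene, and where the 3′ UTRs of ncx-1 and sec-23 meet. Introns of C37C3.1 and F59B10.4 held 2 more. Summits between genes lay upstream of rnf-121 by 124 bp and of C09E7.7 by 324 bp, downstream of the start of nspb-12 by 1222 bp, and more than 2 kb from any protein-coding start next to Y75B8A.6. A summit in the 3′ UTR of W06H8.6 had ranks of 357 and 113. Others were at the small RNA genes F30H5.4, T06C12.16, T28B4.t1 and R11.t1.

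The regions with support in 1 replicate held several well-known genes. No region of replicate 1 overlapped 13 outside regions, and 10 of these ranked within 100 in replicate 2. The strongest of them lay in an intron of unc-43, the gene of calcium and calmodulin dependent kinase II, 55 bp upstream of a transcript start, with a signal value of 37.2 and rank 41 in replicate 2. Next came summits 795 bp upstream of rpl-38 in the 3′ UTR of C06B8.7 (signal value 34.1, rank 551), between genes 3128 bp upstream of lgc-26 on chromosome V (signal value 32.8, rank 406), 488 bp upstream of C15H9.9 on X (signal value 31.8, rank 90), and in vps-34, a phosphatidylinositol 3-kinase gene (signal value 31.8, rank 95). No region of replicate 2 overlapped 7 outside regions, and 5 of these ranked within 100 in replicate 1. The strongest of them lay in a coding exon of grl-4, a hedgehog-related gene, with a signal value of 37.0 and rank 36 in replicate 1. Those in the 3′ UTR of atfs-1, the transcription factor of the mitochondrial unfolded protein response (signal value 34.2, rank 45), and in an intron of T24B8.7 (signal value 34.1, rank 50) followed. Then came a coding exon of lmd-2 (signal value 34.0, rank 110) and a coding exon of C33A12.3 at 8 bp from its start (signal value 33.3, rank 491). For each of these regions the support by rank came from 1 library, and the part of that library in the pooled score was not tested.

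Further outside regions of high signal value were each strong in 1 replicate. C14A4.8 had a summit 341 bp upstream (signal value 38.5, ranks 4048 and 293), and C39E9.8 had one in an intron (signal value 38.0, ranks 53 and 7917). A coding exon of Y43D4A.6 held a summit with a signal value of 37.8 and ranks of 5044 and 71. A summit 501 bp upstream of T10C6.10 had a signal value of 37.5 and ranks of 51 and 8978. On X they included summits upstream of slc-9B.1 (signal value 36.8, ranks 127 and 2539) and adm-2, an ADAM metalloprotease gene (signal value 36.1, ranks 196 and 2050). A further X summit lay 2439 bp from the start of pdi-2, which codes for a protein disulfide isomerase (signal value 36.7, ranks 233 and 1073), and another in the non-coding gene C30E1.9 (signal value 35.3, ranks 44 and 12054). The 5′ UTR of C23G10.2 (signal value 36.2, ranks 1110 and 92), an intron of the axon guidance gene max-1 (signal value 36.4, ranks 13586 and 57) and a site far from any start near Y7A9D.1 (signal value 35.6, ranks 1037 and 642) were among them as well.

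Outside regions were spread over the nuclear chromosomes close to their lengths, unlike the nuclear optimal regions. X held 28 of the 158 (17.7%, 12.1 to 24.6), against 20 of the 32 nuclear optimal regions (62.5%, 43.7 to 78.9) and 17.02% of 4018 candidate regions. X is 17.7% of the nuclear sequence. The candidate regions are nuclear regions of replicate 1 that overlap replicate 2 and no pooled region, and they stand below for what the replicates share at lower scores. Chromosome V held 35 outside regions, IV 26, III 25, II 24 and I 20. Of the 30 strong in both replicates, 10 lay on V, 9 on III and 2 on X (6.67%, 0.818 to 22.1). The outer 25% at each end of the chromosomes, where genes are sparser and repeats denser in this species, held 34.8% of the outside regions (27.4 to 42.8). They held 37.5% of the nuclear optimal regions (21.1 to 56.3) and 49.0% of the candidate regions (47.4 to 50.5). Among the 1000 strongest of replicate 1, regions that lie outside the pooled list had a share of 44.2% (40.9 to 47.7). The same share in replicate 2 was 43.0% (39.6 to 46.4), and both of these intervals overlap that of the outside regions.

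**Figure D3:**
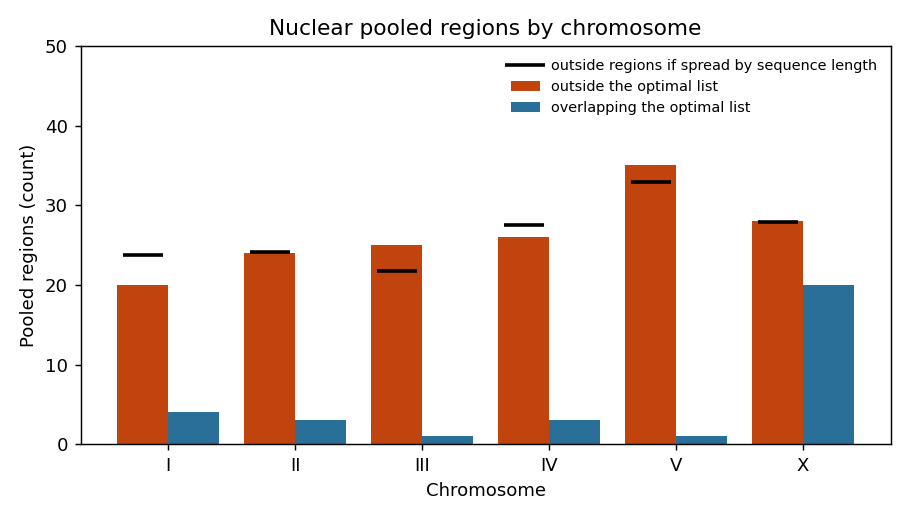
Number of outside regions (orange) and of regions that overlap the optimal list (blue) on each nuclear chromosome, with black marks at the count of outside regions that a spread by sequence length would give. The outside counts run from 20 on I to 35 on V, and the blue bar is tall on X only, with 20 regions.

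The sequence shared by optimal regions on X was not found at the outside regions on X. The 8-base word found at most of the X optimal regions relative to candidates, CGCAGGGA or its reverse complement TCCCTGCG, lay within 100 bp of 0 of 28 outside X summits. That allows a share of up to 10.7% by the limit of 3 counts, and up to 12.3% by the exact interval. The word lay that close at 12 of 20 X optimal regions, whose sequences chose it, and at 1 of 684 candidate regions on X (0.146%). A low count in candidate regions was also part of the choice, so the candidate share is not independent of it. The corresponding 10-base word, CCCTGCGCGA, was at 0 of 28, 10 of 20 and 0 of 684. It overlaps the other word in 7 bases. Words of this kind are known from the X sites that recruit the dosage compensation complex, which lowers transcription of X genes in hermaphrodites. The sequences of 3 X optimal regions and of the outside X region nearest to the word are given so that they can be set side by side. In the X optimal regions at chrX:11094110-11094149 (plus strand), chrX:2997108-2997147 (plus strand) and chrX:6296559-6296598 (minus strand), capitals mark the exact word. In the outside region at chrX:5729272-5729311 (minus strand), in an intron of rgs-6, a gene of G protein signalling, capitals mark the bases equal to the word, with 2 mismatches.
outside X, rgs-6: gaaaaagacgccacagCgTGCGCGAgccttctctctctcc
X optimal, first: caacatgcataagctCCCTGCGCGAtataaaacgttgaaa
X optimal, next: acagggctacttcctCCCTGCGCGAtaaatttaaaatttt
X optimal, last: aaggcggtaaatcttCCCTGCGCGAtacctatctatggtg
No other outside X region came within 2 mismatches of the 10-base word. A best match with 2 mismatches was thus at 1 of 28 outside X regions (3.57%), near the 29 of 684 X candidate regions (4.24%). A further 1 of the 684 had 1 mismatch. The region at rgs-6 had a signal value of 31.7 and ranks of 1089 and 191. In a list of dosage compensation and sex determination genes, 1 of 12 (8.33%) was the gene of an outside region, against 141 of 19973 protein-coding genes (0.706%), and 5 of the 12 (41.7%) were genes of candidate regions, against 15.8% of protein-coding genes. The gene of an outside region was mix-1 on chromosome II, a condensin subunit shared with the dosage compensation complex. Its summit lay in an intron 50 bp from the snoRNA gene M106.6. The share of 8.33% rests on mix-1 alone, and no test was made of it.

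Small RNA genes were near 26 of the 158 outside summits (16.5%, 11.04 to 23.2, within 500 bp), against 7 of the 32 nuclear optimal summits (21.9%, 9.28 to 40.0) and 110 of 4018 candidate summits (2.74%, 2.26 to 3.29). Of all nuclear positions, 1.33% lie that close to one. These genes are short, highly transcribed loci whose RNAs act in translation, splicing, RNA modification and gene silencing. The interval of the outside regions lay above that of the candidates. It was also above the shares among the 1000 strongest regions of each replicate that lie outside the pooled list, 3.08% (2.02 to 4.49) in replicate 1 and 3.39% (2.28 to 4.83) in replicate 2. Of the 26 summits, 18 lay within 100 bp of the gene. The 26 comprised 10 snoRNA, 8 tRNA, 6 snRNA and 2 microRNA genes. Many of these genes have near-identical copies among which reads can be shared, so the copy that carried the signal is uncertain, and how such reads were treated is not given in the sources used here.

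**Figure D4:**
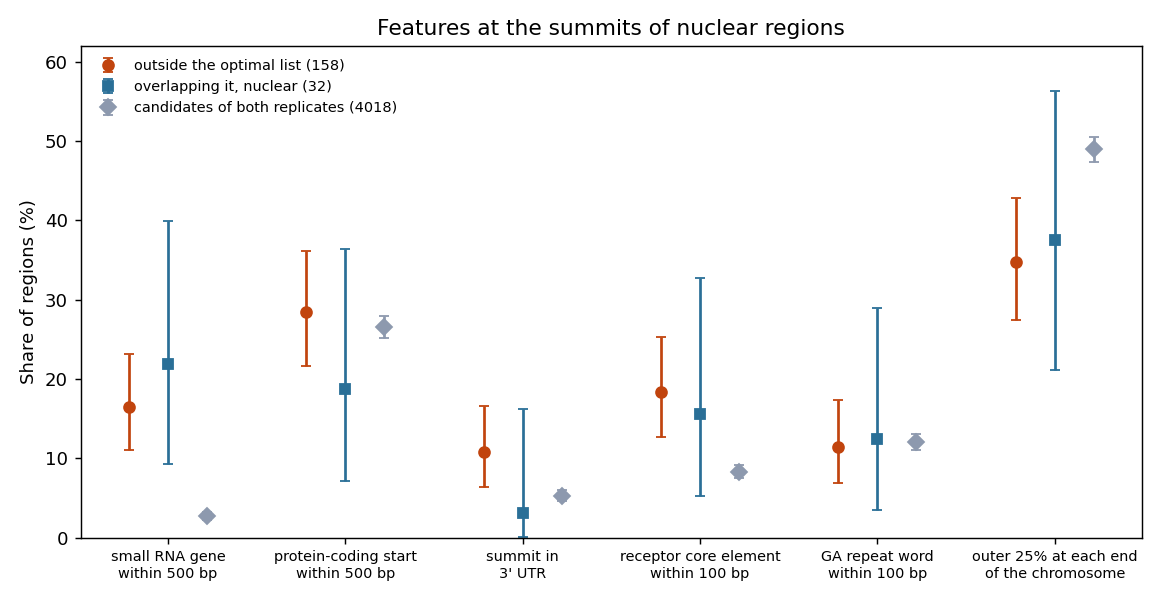
Share of regions (%) with each feature, for outside regions (orange circles, n = 158), nuclear regions that overlap the optimal list (blue squares, n = 32) and candidate regions of both replicates (grey diamonds, n = 4018), with exact 95% intervals. The small RNA share is 16.5% in outside and 2.74% in candidate regions, while the promoter shares of 28.5% and 26.6% overlap within their intervals.

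The snoRNA genes, which guide chemical modification of ribosomal and other RNAs, ranged from a signal value of 38.6 at ZK994.7 to 30.2 at C16D9.11, inside an intron of the rol-3 gene. Of the 10, 9 had their summit within 100 bp and 4 were strong in both replicates: ZK994.7, F55A11.10, F30H5.4 (ranks 738 and 403) and T06C12.16 (ranks 926 and 665). M03D4.78, 414 bp upstream of the kinesin gene zen-4, held the summit itself, with a signal value of 35.4 and ranks of 1240 and 222. C27H5.9, beside pdl-1, had ranks of 417 and 1118. F59C6.15 on chromosome I had a signal value of 33.3 and ranks of 1238 and 2761, so it was outside the 1000 strongest of both lists. The SmY RNA genes smy-2, annotated as a snoRNA, and smy-1, annotated as an snRNA, lay at neighbouring regions in C33A12.3. Replicate 1 alone had a region at smy-2 (rank 491), and at smy-1 the ranks were 1599 and 106. SmY RNAs take part in trans-splicing.

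The tRNA genes near outside regions lay mostly on X. Of the 8, 7 lay on X, which is 7 of 28 outside X regions (25%, 10.7 to 44.9) against 2 of 20 X optimal regions and 24 of 684 X candidate regions (3.51%, 2.26 to 5.18). X holds 276 of the 612 annotated nuclear tRNA genes. T28B4.t1, a tRNA-Phe gene in an intron of the F-box gene fbxl-4, had the highest signal value of them, 37.4, with ranks of 326 and 389. R11.t1, a tRNA-Tyr gene, had a signal value of 35.4 and ranks of 485 and 264. Those 2 were strong in both replicates. F49E2.t1 (tRNA-Val) and H08J11.t3 (tRNA-Gln) each held the summit, with ranks of 307 and 12128 for F49E2.t1 and of 7770 and 534 for H08J11.t3. F12D9.t1 (tRNA-Cys), F32A6.t1 (tRNA-Phe) and F47E1.t1 (tRNA-Gln) had signal values from 30.5 to 31.8. The autosomal one was Y82E9BR.t1 (tRNA-Gly) on III, 72 bp from the summit, with ranks of 95 and 13164. The word GGTTCGA, on either strand, common in the internal B-box promoter of tRNA genes, lay within 200 bp of 7 of 158 outside summits (4.43%, 1.80 to 8.92), 2 of 32 nuclear optimal summits and 3.56% of candidate summits.

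The snRNA genes included 2 of the SL2 RNA family, sls-2.2 and sls-2.14, whose RNAs supply the leader that is spliced to downstream genes of operons. The summit 145 bp from sls-2.2 had a signal value of 34.9 and ranks of 80 and 1194, and that 218 bp from sls-2.14 had a signal value of 30.2 and ranks of 1753 and 1493. The region 94 bp from sup-39 had a signal value of 36.4 and ranks of 6151 and 87. F38E11.10 lay 242 bp from a summit in hsp-12.3. The microRNA genes were mir-52 and mir-71. mir-71, known for its part in lifespan, lay 248 bp from a summit in an intron of ppfr-1 with a signal value of 31.1 and ranks of 268 and 4886. Strong support did not separate these genes clearly. A small RNA gene was near 8 of the 30 outside regions strong in both replicates (26.7%, 12.3 to 45.9), 10 of the 58 strong in replicate 1 alone (17.2%), 6 of the 56 strong in replicate 2 alone (10.7%) and 2 of the 14 strong in neither (14.3%), with overlapping intervals.

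**Figure D5:**
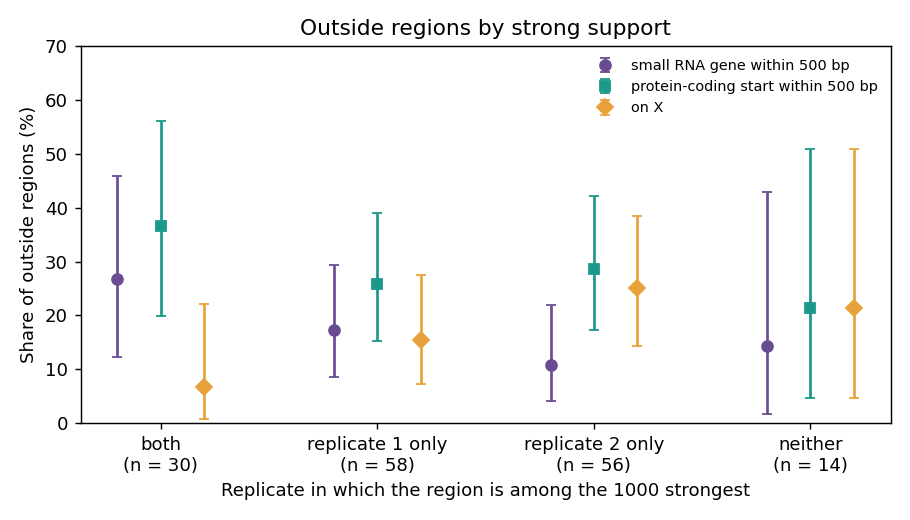
Share of outside regions (%) near a small RNA gene (purple circles), near a protein-coding start (green squares) and on X (yellow diamonds), by the replicate in which the region is among the 1000 strongest, with exact 95% intervals. The intervals of the 4 support groups overlap for each feature, with a small RNA share of 26.7% in both replicates and 14.3% in neither.

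The shares of regions at protein-coding promoters overlapped within their intervals. A summit within 500 bp of a transcript start was present at 45 of 158 (28.5%, 21.6 to 36.2), against 6 of 32 nuclear optimal regions (18.8%, 7.21 to 36.4), 1067 of 4018 candidates (26.6%, 25.2 to 27.95) and 23.2% of nuclear positions. Within 2 kb a start was present at 100 of 158. Promoter regions included those at sec-61.G, idh-1, fos-1, unc-43, gst-22, kel-3, C14A4.8 and rps-19.

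By position in the gene, 54 of the 158 outside summits were intergenic (34.2%, 26.8 to 42.1), against 18 of 32 nuclear optimal summits (56.2%, 37.7 to 73.6) and 32.9% of candidate summits. Introns held 42 (26.6%, 19.9 to 34.2), against 4 of 32 and 34.2% of candidates, and coding exons 29 (18.4%, 12.7 to 25.3), against 3 of 32 and 22.8%. The 3′ UTR held 17 (10.8%, 6.39 to 16.7), against 1 of 32 and 5.30% (4.63 to 6.04) of candidates. The interval of the outside regions lay above that of the candidates. Regions among the 1000 strongest of replicate 1 that lie outside the pooled list had 4.98% (3.61 to 6.68). The same share in replicate 2 was 5.37% (3.96 to 7.10), and both of these intervals overlap that of the outside regions. Those 17 include the summits in oct-1, atfs-1, cdk-5, unc-18, which codes for a syntaxin-binding protein of synapses, and unc-87, a muscle protein gene. They also include tmem-258, gpb-1 and daf-41, and 4 of the 17 were strong in both replicates. GC content had a median of 37.5% in outside regions, 36.4% in nuclear optimal regions and 35.0% in candidates.

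The receptor core element was seen more often near outside summits than near candidate summits. AGGTCA or GGGTCA, on either strand, lay within 50 bp of 13 of 158 outside summits (8.23%, 4.45 to 13.7), against 4 of 32 nuclear optimal summits (12.5%, 3.51 to 29.0) and 164 of 4018 candidate summits (4.08%, 3.49 to 4.74), and these intervals overlap. Within 100 bp it lay at 29 of 158 (18.4%, 12.7 to 25.3), against 5 of 32 (15.6%, 5.28 to 32.8) and 335 of 4018 (8.34%, 7.50 to 9.24), and there the interval of the outside regions lay above that of the candidates. Among the 1000 strongest regions of each replicate that lie outside the pooled list, the share within 100 bp was 7.24% (5.58 to 9.20) in replicate 1 and 7.59% (5.91 to 9.58) in replicate 2. Small RNA genes can themselves hold the element, for example T28B4.t1 and R11.t1. Away from such genes, the share within 100 bp was 18.2% (12.01 to 25.8) of 132 outside regions and 8.24% (7.40 to 9.15) of 3908 candidates. The word GAGAGA, on either strand and searched as a comparison, lay within 100 bp of 11.4% (6.89 to 17.4) of outside, 12.5% (3.51 to 29.0) of nuclear optimal and 12.02% (11.03 to 13.1) of candidate summits. Median GC content is higher in outside regions, and its part in the difference was not tested.

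The element's surroundings at 11 of the 13 outside regions that hold it within 50 bp are shown so that the bases around the element can be compared, and the other 2 are not shown. Each is 30 bases long on the strand that reads the element, with capitals on the element. They lie, in order of signal value, at chrIV:16787628-16787657 (plus strand, Y43D4A.6), chrX:6593627-6593656 (plus, inside the tRNA gene T28B4.t1), chrIV:10340619-10340648 (plus, unc-43), chrII:7183956-7183985 (minus, pdl-1), chrIII:13464734-13464763 (plus, cdk-5 and kel-3), chrIII:7527366-7527395 (plus, C07H6.11), chrII:8747340-8747369 (minus, near mak-1), chrX:16039179-16039208 (minus, B0395.3), chrIII:8651857-8651886 (plus, flp-23), chrII:10518746-10518775 (plus, F59B10.4) and chrV:10253032-10253061 (minus, rop-1).
Y43D4A.6: tgccagtgaatcAGGTCAaaggatatttga
T28B4.t1 element: ctgaagatcgtaAGGTCAccagttcgatcc
unc-43: aaaaaaggcaaaAGGTCAgatctacgagaa
pdl-1: tgttccctttttGGGTCAgccatgtcttct
cdk-5: gaggttcatttgGGGTCAgtgggggaagtg
C07H6.11: gagcgaaagaagAGGTCAgatggacccacg
mak-1: tttccccaactaGGGTCAtttggtgacagc
B0395.3: cgcaatggccggAGGTCAcggtgcagcccg
flp-23: tacaaaacgggaAGGTCAtcccgagttcat
F59B10.4: tttaaagaatacAGGTCAaaatgttttgct
rop-1: ttcatgacgcgaAGGTCAttgtgatggcaa
Of the 13, 3 were strong in both replicates (at T28B4.t1, cdk-5 and F59B10.4). A further 5 were strong in replicate 1 alone, 2 in replicate 2 alone and 3 in neither. Those groups hold 30, 58, 56 and 14 outside regions, in that order. Regions strong in neither had the highest share, 21.4% (4.66 to 50.8) within 50 bp and 35.7% (12.8 to 64.9) within 100 bp. Within 100 bp the shares of the other groups were 26.7% (both), 15.5% (replicate 1 alone) and 12.5% (replicate 2 alone). The intervals of all groups overlap at both distances, so strong support did not clearly separate regions with the element. The element at Y43D4A.6 lay in a region with ranks of 5044 and 71, and that at unc-43 in a region that had no overlap in replicate 1. rop-1, which codes for the Ro RNA-binding protein, had ranks of 106 and 12182.

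Members of the gene families examined were read against all protein-coding genes. No nuclear hormone receptor gene (0 of 269) was the gene of an outside region, against 141 of 19973 protein-coding genes (0.706%) and 55 receptor genes at candidate regions (20.4%, against 15.8% of all protein-coding genes). Histone genes (0 of 72), homeobox genes (0 of 63), nuclear respiratory chain genes (0 of 29) and proteasome genes (0 of 33) had none either, and at 0.706% lists of these sizes would hold few or none. Of 78 ribosomal protein genes 3 did (3.85%). They were rps-19 (summit 189 bp upstream, signal value 34.5, ranks 197 and 11887), rpl-38 and rpl-15 (336 bp upstream, signal value 31.1, no region in replicate 1 and rank 81 in replicate 2). Each was among the 1000 strongest of 1 replicate only. Of 22 heat shock genes 2 did (9.09%): hsp-90, whose intron held a summit 89 bp upstream of C47E8.4 (signal value 33.4, ranks 129 and 1488), and hsp-12.3 (signal value 31.5, rank 47 in replicate 1 and no region in replicate 2). Of 156 collagen genes 1 did (0.641%), and of 185 detoxification genes gst-22 did (0.541%), both shares near that of all protein-coding genes. The shares of the ribosomal protein and heat shock lists, above it, rest on 3 and 2 genes, and no test was made of them.

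Outside regions also lay at genes of transcription factors. A summit in an intron of daf-16, the FOXO transcription factor of the insulin pathway, had a signal value of 33.1 and ranks of 6149 and 540. A summit between genes 1692 bp from the start of xbp-1, a transcription factor of the unfolded protein response, had a signal value of 31.7 and ranks of 368 and 1166. These 2 genes were chosen after their values were seen. Another pooled region lay within 5 kb of 9 outside regions. They were 3 regions in W06H8.6 and pairs in unc-52, the gene of the basement membrane protein perlecan, at C33A12.3 and next to cmd-1, the calmodulin gene.

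The outside regions were largely the same on the other build. On ce10, the pooled list held 215 regions and the optimal list 45 peaks, and 168 pooled regions lay outside it. With regions of the builds matched on chromosome and on signal value within 0.01, 155 of the 158 outside regions had a ce10 counterpart that was also outside, 3 had none and 0 had one inside. The ce10 optimal list ended higher, at a signal value of 47.9, so 12 peaks that are optimal on ce11, with 39.2 to 47.9, were outside on ce10.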

How the data were processed

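Peak lists from chromatin immunoprecipitation of 2 biological replicates were used: a candidate list for each replicate, and a pooled and an optimal list that the authors made over both. The signal value is a score that the authors deposited in each list, used only within that list. Each q-value was deposited by the authors on a −log10 scale, from which q was recalculated. Per the text deposited with the samples, candidate lists include background, were made with control alignments and served as input to IDR. Several steps are missing from this account, namely the aligner, peak caller, IDR threshold, read depth and treatment of reads with several matches, none of which was stated in the material used. The p-value column holds no values, so ranking by q broke ties by signal value. Ends of all regions lay within their chromosomes.

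Outside regions overlap no optimal peak by 1 bp. A region's gene was the protein-coding gene with the nearest start up to 2000 bp away or the gene that holds the summit, and any non-coding gene within 500 bp, from Ensembl release 115 and RefSeq on WBcel235. A summit annotated to several classes took the first of small RNA gene, coding exon, UTR, intron and other non-coding gene. Named are genes of the 30 outside regions of highest signal value, of those among the 1000 strongest of both replicates, of the strongest 5 that lack a region in either replicate, and members of the gene lists; other genes named were chosen after their values were seen, among them those of the 3′ UTR group, of neighbouring regions and of the core element sites. The members and lists were chosen with earlier results of these data known. Intervals of shares are exact (Clopper-Pearson, 95%). They cover counting error over regions, and a count of 0 allows up to 3 counts. Regions are not replicates of worms, and no p-values were computed. Versions were matplotlib 3.10.9, scipy 1.17.1, pandas 2.3.3, numpy 2.4.6 and Python 3.11.15, and the overlap and word counts were first tested on simulated regions. Alternatives were the ce10 lists, other overlaps, ranks, windows and words, the stronger part of each list, and outside regions with support in a given replicate. 1 outside region that these naming rules cover enters the counts, and its own values are not reported here.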

Additional observations from a re-analysis of the deposited data

How the results depend on the processing

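Of 41 alternative values, 30 stayed within the 95% interval of the value reported and 11 moved out of it; no test was made, so none could change a call. In the stronger part of the pooled list by signal value, 46.8% of regions lay outside the optimal list, since that part holds the optimal peaks. The share of outside regions among the strongest of both replicates moved with the limit, to 9.49% at rank 500 and 39.9% at rank 2000. Taking either replicate alone gave 54.4% to 55.7%, and the share in the candidate lists ran from 91.8% to 95.6%, because only 1 list is asked. The share on X was 11.4% in the stronger part of the outside regions. It was 12.5% in the 88 outside regions among the 1000 strongest of replicate 1 and 18.6% in the 86 of replicate 2. These are called the ranked subsets below. They are parts of the pooled list, so they do not give the share in a list made from 1 replicate. The cause of the X value in the stronger part was not tested. The promoter share was 13.9% at 200 bp and 40.5% at 1000 bp, where candidates had 11.3% and 44.0%, so its order against the candidates turned at 1000 bp. In the ranked subsets the promoter share was 29.5% to 31.4%. The small RNA share stayed within its interval under every alternative run. It was 13.3% at 200 bp and 19.0% at 1000 bp, against 1.87% and 4.03% of candidates. In the ranked subsets it was 16.3% to 20.5%. The core element share was 18.4% within 100 bp, against 8.34% of candidates, and 16.5% within 50 bp with G or T allowed before TCA, against 13.2%. For AGGTCA or GGGTCA within 50 bp, it was 5.81% to 9.09% in the ranked subsets and 8.33% without regions near small RNA genes. Both of these settings were chosen after seeing the data. The 6-base word CCTGCG lay at 2 of 28 outside X regions (7.14%, 0.877 to 23.5), against 14 of 20 X optimal regions (70%). It lay at 11 of 684 X candidate regions (1.61%, 0.805 to 2.86) and 3 of 130 autosomal outside regions (2.31%, 0.478 to 6.60). The leading word lay at 0 of the outside X regions at 50, 100 and 150 bp. No paired analysis was possible because both replicates form 1 group. Depth is not recorded in the lists, and whether it sets the number or order of regions could not be examined.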
